A study of Canis lupus familiaris with 32 samples.

Results

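Genes of cytokine, chemokine and cytokine receptor signaling were examined in 32 primary canine osteosarcomas. Members were chosen by symbol in the platform annotation: CC and CXC chemokines and their receptors, interleukins and their receptors, tumor necrosis factor (TNF) superfamily ligands and receptors, interferons and their receptors, colony stimulating factors, Toll-like receptors, and the IRF, STAT, JAK, SOCS, NFKB and REL factors. The rule found 27 of the 5246 genes with a symbol, measured by 36 of the 22176 probes. Of these, 20 genes had 1 probe and 7 had several, which were averaged. The 27 genes were 6 chemokine ligands (CCL4, CCL5, CCL14, CCL16, CCL21, CCL23), the chemokine receptor CCR3, the colony stimulating factor CSF2, 2 interferon gamma receptor chains (IFNGR1, IFNGR2), 5 interleukin receptors (IL1R2, IL5RA, IL10RB, IL17RE, IL27RA), the interleukin binding protein IL18BP, 3 TNF superfamily genes (TNFRSF11A, TNFRSF14, TNFSF13), and 8 genes that act inside the cell (JAK1, STAT3, SOCS5, SOCS6, IRF2, NFKBIA, NFKBIL1, NFKBIZ). None was a CXC chemokine, a Toll-like receptor, an interleukin or an interferon itself.

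The tumors came from client-owned dogs that had received no therapy before surgery. Of these, 16 were from short survivors (SS), which lived less than 6 months, and 16 from long survivors (LS), which lived longer. Each tumor was hybridized once, on a two-color cDNA array, against a pool of RNA from all 32 tumors, which holds the tumor itself. In each group 8 tumors carried Cy5 and 8 Cy3: SS1 to SS8, LS17 to LS20 and LS29 to LS32 were labelled with Cy5 and the others with Cy3. A value is the log2 ratio of tumor over pool, so 0 is the level of the pool and 1 a doubling over it. Each tumor is a different dog, and the dogs of both groups differed in breed, age, tumor site and chemotherapy after surgery.

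Cytokines are secreted proteins that bind receptors on nearby cells. Many of those receptors pass the signal through Janus kinases (JAK) to STAT transcription factors, and SOCS proteins switch that path off again. Receptors of the TNF and interleukin-1 families instead free the transcription factor NF-kB from its inhibitor, which NFKBIA encodes. Chemokines are small cytokines that attract leukocytes. In bone, the same signals also steer osteoclasts, the cells that resorb bone, through the receptor RANK that TNFRSF11A encodes. Bulk tumor RNA holds tumor cells, blood vessels and infiltrating leukocytes together, so fewer cells of a type and less RNA per cell cannot be told apart in any value below.

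The level of most of these genes differed with the dye that carried the tumor RNA. The orientations hold different tumors, so no gap was measured within a tumor. With survival group and dye as terms (limma, Benjamini-Hochberg adjusted p under 0.10 over 19728 features), 15 of the 27 genes differed between Cy5 and Cy3 arrays, 8 higher and 7 lower in Cy5, and 12 were not called. Among all features 65.6% were called, so the cytokine genes were not unusual in this. CSF2, the granulocyte-macrophage colony stimulating factor, had the largest gap. Its mean was -0.65 ± 0.33 (SD, n = 16) with the tumor in Cy5 and 0.60 ± 0.25 with the tumor in Cy3, a difference of -1.25 (SE 0.10, limma adjusted p = 2.58e-12), and the arrays of the 2 orientations did not overlap. CCL16 (difference 0.83), CCL23 (0.83), SOCS6 (-0.76), TNFSF13 (0.71), NFKBIA (-0.69), CCL5 (0.66) and NFKBIL1 (0.55) followed. CCL23 was at 0.068 on average in Cy5 and -0.76 in Cy3. All levels below are therefore given after subtracting, for each gene, the mean of the 16 arrays of the same orientation. This leaves the SS minus LS difference as it was, because each orientation holds 8 tumors of each group. Differences with tumors left out were computed on deposited values without a dye term. There the orientations are no longer balanced, so part of the dye gap can enter those differences.

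**Figure D1:**
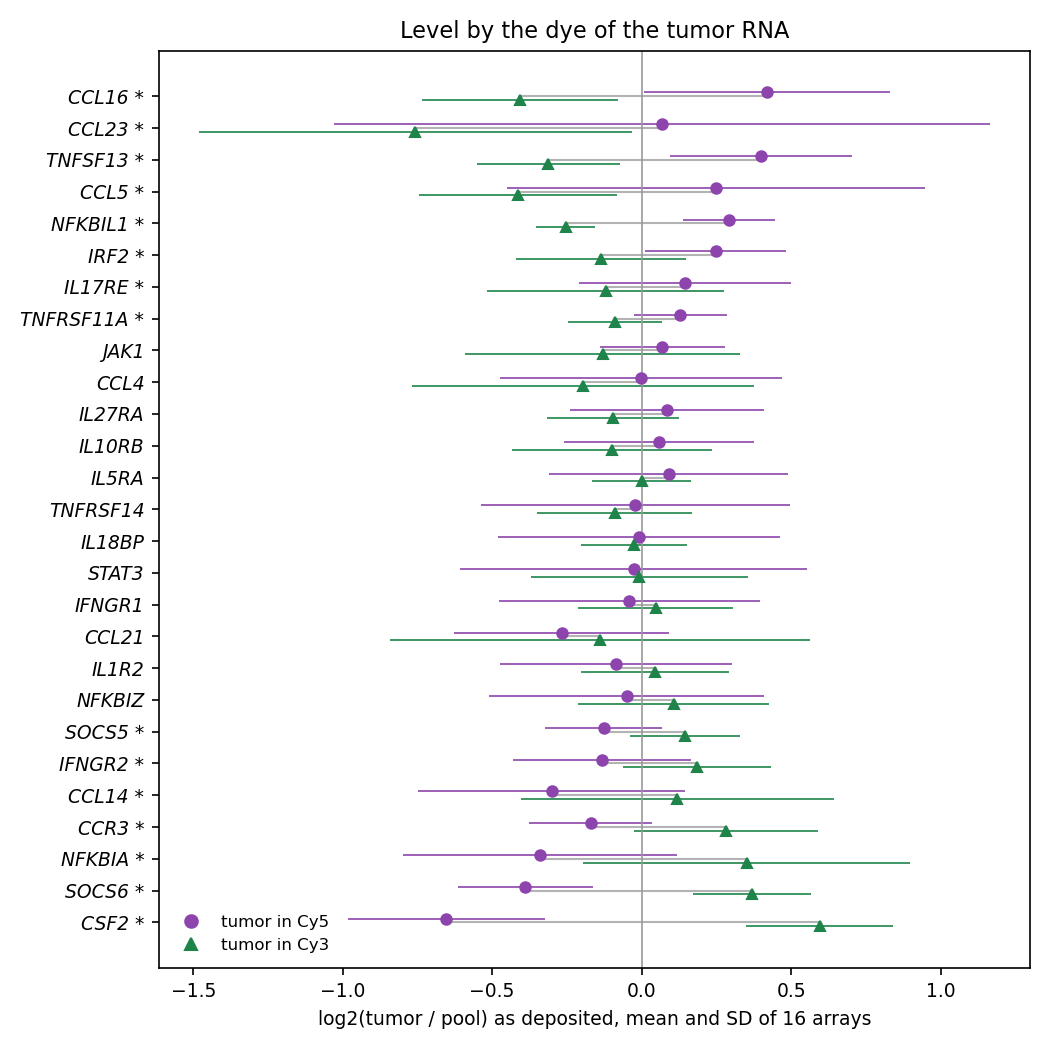
Mean log2 ratio of tumor over pool, as deposited, for each of the 27 genes in the 16 arrays with the tumor in Cy5 (circles) and the 16 with the tumor in Cy3 (triangles). Bars are SDs, and an asterisk marks the 15 genes called between orientations. CSF2 at the bottom runs from -0.65 to 0.60.

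No cytokine or chemokine gene passed the test between short and long survivors. In the comparison of all 32 tumors limma called 0 of 27 genes and 0% of the 19728 features, and the lowest adjusted p of the 27 was 0.64. At an unadjusted p under 0.05 there was 1 of 27 genes, against 6.89% of all features. SAM, a permutation-based method for 2 classes, was rebuilt here rather than run with its own software. It called 2 features at a false discovery rate of 10%, neither of them a cytokine gene and neither higher in SS. With the dye orientation as a block, 0 of the 27 were called against 0.35% of all features, and 1 of the 27 had an unadjusted p under 0.05 against 14.1%. Within the Cy5 arrays limma called 0 of 27 genes (all features, 6.34%) and within the Cy3 arrays again 0 of 27 (all features, 10.2%). Whether these counts of 0 or 1 differ from the shares of all features was not tested, and 27 genes are few for it.

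The differences were small. The median of the 27 SS minus LS differences was 0.034, beside -0.0027 over all features, with 16 genes above 0 and 11 below. The median size of a difference was 0.083, and 0.098 over all features. What the design could show varied by gene: the 95% interval reached from 0.15 on either side of the difference for TNFRSF11A to 0.71 for CCL23, with a median of 0.26. For CCL23 the interval ran from -0.67 to 0.75, so at this number of tumors differences up to that size in either direction were not excluded. The sign of the difference was the same in both dye orientations for 11 of the 27 genes, or 40.7% (7 above 0 and 4 below), and for 46.9% of all features.

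**Figure D2:**
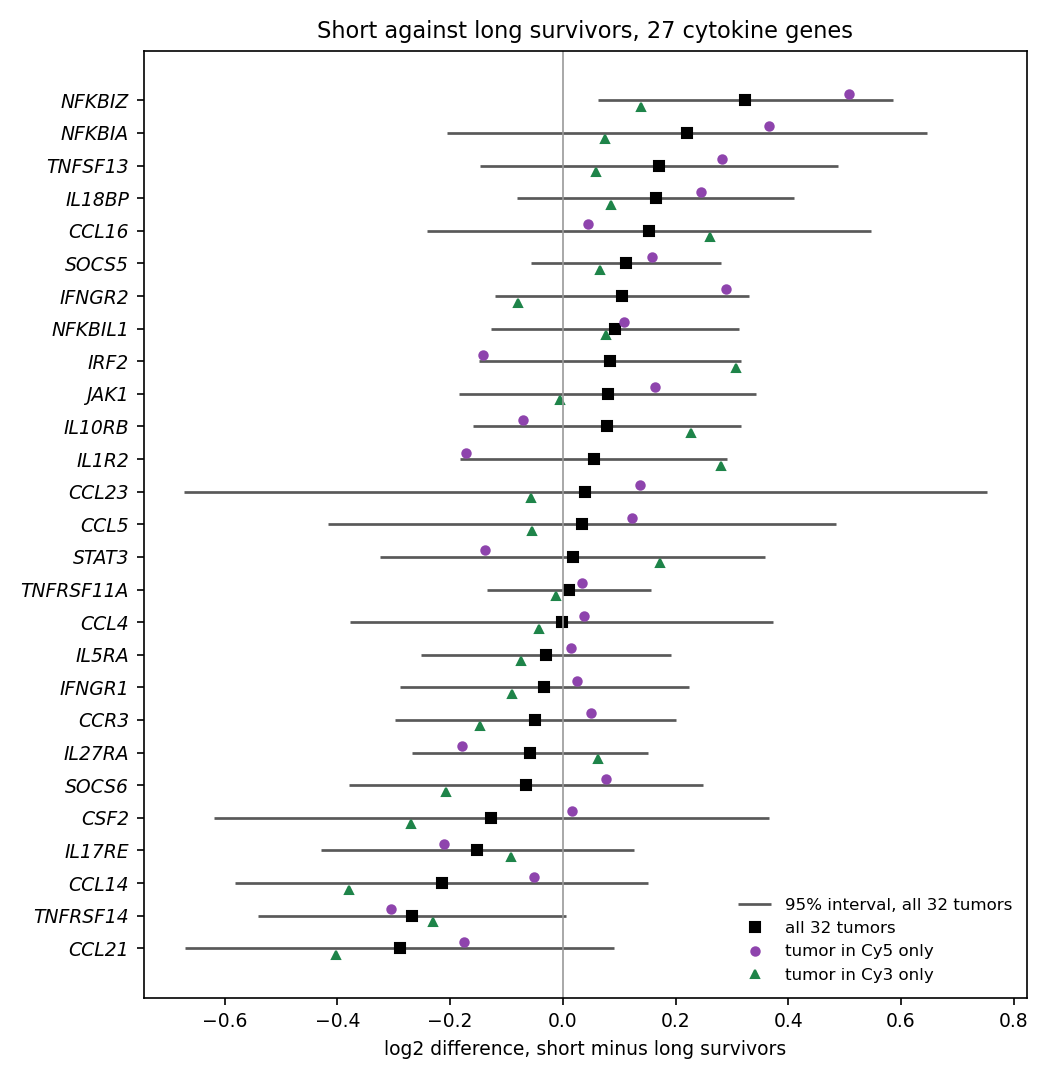
Difference in mean log2 ratio, short minus long survivors, for the 27 genes in all 32 tumors (squares, with 95% intervals from limma), in the Cy5 arrays (circles) and in the Cy3 arrays (triangles). The NFKBIZ interval alone leaves 0 out, before adjustment for the number of features, and 16 genes have their circle and triangle on opposite sides of 0.

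CCL23 had the largest spread of the 27 genes from tumor to tumor, with CCL5, CCL21 and CCL4 next. CCL23, which attracts monocytes and resting T cells, reached from -1.18 over a median of -0.32 to 2.72 in SS and from -1.21 over 0.034 to 1.47 in LS. Its highest tumor was SS4, at 2.72, followed by LS19 (1.47), LS21 (1.42), SS11 (1.25) and SS10 (1.03), and 4 tumors (LS30, SS1, SS3, LS17) lay under -1. The high tumors came from both groups and both dyes, and the 4 low ones from both groups but all from Cy5 arrays. The group difference was 0.040 (SE 0.35) and became -0.17 without SS4.

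CCL5, a chemokine of T cells and monocytes, ranged from -0.69 (median -0.13) to 1.45 in SS and from -0.51 (median -0.21) to 1.06 in LS. Tumors SS8 (1.45), SS4 (1.08) and LS31 (1.06) stood above the rest, and the difference of 0.034 (SE 0.22) turned to -0.084 without SS8. CCL16, a chemokine made mainly by the liver, ran from -0.85 (median 0.11) to 0.93 in SS and from -0.57 (median -0.084) to 0.43 in LS, a difference of 0.15 (SE 0.19). The groups overlapped over most of their range in both genes.

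CCL4, a chemokine of monocytes and T cells, was measured by 2 probes that did not follow each other (r = 0.10 over 32 tumors after centering within group and orientation). One put its highest value, 1.62, in SS4, and the other its lowest, -3.64, in SS14, where the first gave no such value. Their group differences were 0.30 and -0.30, so the mean difference of -0.0019 stands for neither. The averaged gene ran from -1.77 (median 0.067) to 0.71 in SS and from -0.57 (median 0.024) to 0.77 in LS, and without SS14 its difference was 0.12.

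CCL21 guides dendritic cells and naive lymphocytes through CCR7 and is made by lymphatic vessels and lymph node stroma. Its 4 probes moved as one, with r from 0.92 to 0.96 between them. In SS it ran from -0.54 (median -0.15) to 0.31, a narrow band, and in LS from -0.51 (median -0.10) to 2.42. The upper end was tumor LS21 (2.42), with LS32 (0.91) and LS17 (0.61) next. All 4 probes had a difference below 0 (-0.17 to -0.44), but the gene's difference of -0.29 (SE 0.19, p = 0.13 and adjusted p = 0.80, limma) shrank to -0.13 without LS21.

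CCL14, a chemokine found in plasma, shared its highest tumor with CCL21. It ran from -0.67 (median -0.18) to 0.97 in SS and from -0.38 (median -0.063) to 1.68 in LS, where LS21 was highest. The difference was -0.22 (SE 0.18) and -0.096 without LS21. In the RefSeq gene table of the dog, CCL4, CCL5, CCL14, CCL16 and CCL23 lie together on 1 chromosome, at most 6 protein-coding genes apart, while CCL21 lies elsewhere. Whether a spotted cDNA of one of these neighbors also bound transcripts of another was not tested.

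**Figure D3:**
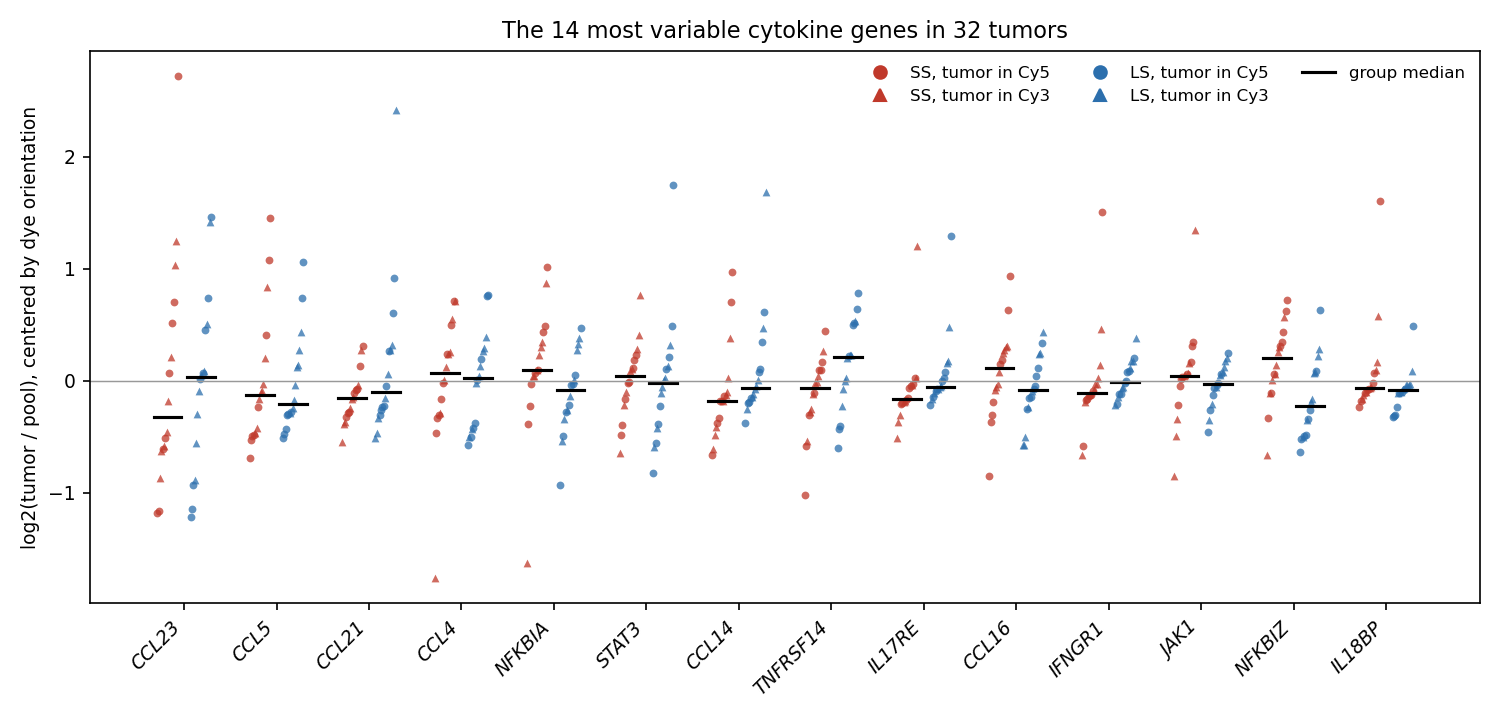
Log2 ratio of tumor over pool, centered within each dye orientation, of the 14 genes with the largest SD, in 16 short survivors (left of each pair, red) and 16 long survivors (right, blue). Circles are Cy5 and triangles Cy3 arrays, and bars are group medians. SS4 is the highest point for CCL23, NFKBIA, IFNGR1, NFKBIZ and IL18BP, and LS21 for CCL21 and CCL14.

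Among the NF-kB inhibitors, NFKBIZ had the smallest p of the 27 genes. It encodes a nuclear inhibitor that also helps NF-kB switch on late inflammatory genes such as that for interleukin-6. Its level ran from -0.66 (median 0.20) to 0.72 in SS and from -0.63 (median -0.23) to 0.63 in LS, and in 14 of the 16 SS dogs it exceeded the mean of LS. The difference was 0.32 (SE 0.13), with p = 0.017 before and 0.64 after adjustment over all features (limma), and an adjusted p of 0.26 with the dye block. It was 0.51 (SE 0.19) in Cy5 and 0.14 (SE 0.15) in Cy3 arrays, and 0.29 to 0.37 with 1 tumor left out at a time.

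NFKBIA encodes the inhibitor that holds NF-kB in the cytoplasm and is itself an NF-kB target. It ran from -1.62 (median 0.094) to 1.02 in SS and from -0.93 (median -0.086) to 0.47 in LS. SS4 (1.02) and SS11 (0.87) were highest and SS13 lowest, so both ends were short survivors, and the difference was 0.22 (SE 0.21). NFKBIL1, a less studied relative, had the smallest spread of the 27, with an SD of 0.12. It ran from -0.19 (median 0.016) to 0.33 in SS and from -0.30 (median -0.041) to 0.038 in LS. In 7 SS tumors it lay above every LS tumor, yet the difference was 0.093 (SE 0.048 with the dye block, adjusted p = 0.37).

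In the TNF superfamily, TNFRSF14 encodes HVEM, a receptor on lymphocytes and myeloid cells that binds LIGHT and BTLA. It reached from -1.02 (median -0.064) to 0.45 in SS and from -0.60 (median 0.21) to 0.78 in LS. Of 16 SS tumors, 13 lay below the LS mean, and LS29 and LS31 were highest. The difference of -0.27 (SE 0.13, p = 0.055, adjusted p = 0.73, limma) was -0.30 in Cy5 and -0.23 in Cy3. TNFSF13, the B cell survival factor APRIL, ran from -0.20 (median 0.069) to 0.63 in SS and from -0.63 (median -0.10) to 0.63 in LS, a difference of 0.17 (SE 0.093 with the dye block, adjusted p = 0.39). TNFRSF11A, the osteoclast receptor RANK, hardly varied: -0.28 to 0.32 in SS and -0.21 to 0.22 in LS, with a difference of 0.011 (95% interval -0.13 to 0.16).

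Among the interferon receptors, IFNGR1 encodes the chain that binds interferon gamma and IFNGR2 its signaling partner. IFNGR1 ran from -0.66 (median -0.11) to 1.5 in SS and from -0.21 (median -0.0081) to 0.38 in LS. The top value was SS4, with SS11 next at 0.46, and the difference of -0.033 (SE 0.13) was -0.13 without SS4. IFNGR2 ran from -0.43 (median 0.035) to 0.53 in SS and from -0.66 (median -0.058) to 0.34 in LS, a difference of 0.11 (SE 0.11) that was 0.29 in Cy5 and -0.079 in Cy3.

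IL18BP neutralizes interleukin-18 and is itself induced by interferon gamma. Its 2 probes followed each other (r = 0.71), and both placed SS4 highest, at 1.42 and 1.79. The averaged gene ran from -0.23 (median -0.068) to 1.61 in SS and from -0.32 (median -0.088) to 0.49 in LS. The difference was 0.16 (SE 0.12) and 0.063 without SS4, so 1 tumor carried most of it.

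Of the interleukin receptors, IL17RE, which pairs with another IL-17 receptor to bind IL-17C, had 2 tumors apart from the rest, LS30 at 1.29 and SS14 at 1.20. These are means of 2 probes (r = 0.71) that differed in their highest tumor. The first was highest in LS30 (1.06) and the second in SS14 (2.24). Their SS minus LS differences were -0.20 and -0.099. Otherwise the averaged gene ran low and flat, with an SS median of -0.16 and an LS median of -0.053. Of 16 SS tumors, 15 lay under the LS mean of 0.076, but so did most LS tumors, because LS30 raised that mean. The difference was -0.15 (SE 0.14), and -0.062 without LS30. That tumor and LS27, the third highest, were also the 2 richest in skeletal muscle transcripts, and IL17RE followed the mean of 14 muscle markers with r = 0.55 (0.34 without the 2 tumors farthest from the median of that mean). The part of muscle in the IL17RE level was not tested.

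IL1R2, the decoy receptor that binds interleukin-1 without signaling, peaked in LS19 at 1.25. Its 2 probes agreed poorly (r = 0.34), and only the first carried the peak (2.17). IL10RB, the shared chain of the receptors for interleukin-10 and related cytokines, IL27RA, a receptor for interleukin-27, and IL5RA, the interleukin-5 receptor of eosinophils, had SDs of 0.28 to 0.33 and differences between -0.058 and 0.078. IL5RA was lowest in SS4, at -1.14, the tumor in which 8 of the other members were highest. CCR3, the eotaxin receptor of eosinophils, ran from -0.40 (median -0.018) to 0.87 in SS and from -0.37 (median 0.013) to 0.33 in LS. SS15 was its only tumor above 0.33.

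CSF2, with its large dye gap, ran from -0.45 (median -0.075) to 0.31 in SS and from -0.69 (median 0.13) to 0.60 in LS once centered. The difference was -0.13 (SE 0.24), with 0.016 in Cy5 and -0.27 in Cy3. With the dye as a block the SE fell to 0.10 and the adjusted p was 0.56.

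Inside the cell, STAT3, which carries signals of interleukin-6 and interleukin-10, ran from -0.65 (median 0.039) to 0.77 in SS and from -0.83 (median -0.023) to 1.75 in LS. LS32 alone lay above 1, and the difference of 0.017 (SE 0.17) became 0.13 without it. JAK1, the kinase of most interferon and interleukin receptors, ran from -0.85 (median 0.045) to 1.35 in SS and from -0.46 (median -0.032) to 0.25 in LS. Its top value was SS16, but 1 of the 2 probes gave that tumor 2.51 while the other was highest elsewhere (r = 0.19 between them).

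The SOCS genes encode brakes on this path. SOCS5 ran from -0.27 (median 0.039) to 0.42 in SS and from -0.30 (median -0.090) to 0.21 in LS, a difference of 0.11 (SE 0.083). Its 2 probes disagreed (r = 0.22): the SS minus LS difference was -0.10 for one and 0.33 for the other (SE 0.11, p = 0.0051 and adjusted p = 0.54 with each probe tested alone, limma). SOCS6 stayed between -0.37 and 0.38 in all tumors.

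IRF2, a repressor and activator of interferon-responsive genes, had differences of opposite sign in the 2 orientations. Centered levels ran from -0.53 (median 0.027) to 0.78 in SS and from -0.38 (median -0.037) to 0.25 in LS, and 4 SS tumors lay above every LS tumor. The SS minus LS difference was -0.14 (SE 0.12) in Cy5 and 0.31 (SE 0.12) in Cy3 arrays. The interaction of survival and dye was -0.45 (SE 0.17), with an adjusted p of 0.101 (limma) just over the threshold. In that test 0 of the 27 genes were called, against 11.6% of all features.

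Set against the whole array, the cytokine genes varied more than the median feature. After centering within survival group and orientation, their median SD over tumors was 0.35, beside 0.26 for all features, and 22 of 27 lay above that median. Of these, 7 lay above percentile 80: CCL23 (SD 0.96), CCL5 (0.56), CCL21 (0.55), CCL4 (0.54), NFKBIA (0.50), STAT3 (0.49) and CCL14 (0.48). CCL23, at percentile 95.5, was the 1 gene above percentile 90. Of the 6 chemokine ligands 5 were among these 7, and CCL16 (SD 0.37) was not.

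Tumors high in one of these genes tended to be high in others. Over the 351 pairs the median Pearson r of the centered values was 0.12 (n = 32 tumors), beside 0.0039 over all pairs of genes with a symbol. An r above 0.5 was found for 23 pairs (6.55%, and 1.78% of all gene pairs), but for 13 pairs without tumor SS4 (1.88% of all gene pairs). All values of a tumor come from 1 array, so they share its RNA, labelling and normalization, and correlations are given as descriptions with no test.

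The pair with the highest r, IFNGR1 and IL18BP (0.76), rested on SS4: without SS4 and SS11 it was 0.32. CCL14 and CCL21 followed each other at r = 0.70 (rho = 0.52), and at 0.52 without LS21 and SS2. NFKBIA and TNFRSF14 (r = 0.66, rho = 0.65), and CCL23 and TNFRSF14 (r = 0.65, rho = 0.75), did not rest on single tumors, with 0.71 and 0.69 after leaving out the 2 farthest and 0.64 to 0.74 within each orientation. CCL5 and IL27RA (r = 0.65) were tied in the Cy5 arrays (0.83) and little in the Cy3 arrays (0.17). The lowest r, -0.59 between CCL4 and IL17RE, rested in part on SS14 and was -0.33 without SS14 and LS19. SS14 was the lowest tumor of the averaged CCL4 and the second highest of the averaged IL17RE. For each gene 1 probe had this extreme in SS14 (-3.64 and 2.24), and the other had it in another tumor.

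Several of these genes followed macrophage markers. Of a list of 25 macrophage and monocyte genes 14 were measured, and their mean in each tumor, centered as above, ran from -0.74 (median 0.0016) to 1.79 in SS and from -0.83 (median -0.082) to 0.75 in LS. SS4, LS19, SS2 and SS11 were highest, and LS30 and SS3 lowest. An r above 0.5 with this mean was found for 8 of the 27 genes, against 3.46% of all features: CCL23 (0.84), IL18BP (0.68), NFKBIA (0.68), TNFRSF14 (0.66), IL27RA (0.66), CCL5 (0.64), IFNGR1 (0.55) and CCL4 (0.55). Without SS4 there were 7 of 27, against 2.82% of all features: IFNGR1 (0.050) and IL18BP (0.31) dropped out, and IL1R2 (0.63) came in. In each orientation and without the 2 farthest tumors, 5 of the 8 stayed above 0.5.

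CCL23 had the highest r with these markers in all tumors together. Its r with the mean was 0.89 in Cy5 and 0.73 in Cy3 arrays, and 0.73 without SS4 and LS19. By single marker it was 0.88 with the Fc receptor FCGR1A, 0.84 with the scavenger receptor CD163, 0.83 with AIF1, 0.81 with lysozyme (LYZ) and 0.80 with the complement gene C1QA, but 0.17 with CD68. Without SS4, TNFRSF14 (0.77) and CCL23 (0.76) were nearly level. One CCL4 probe followed the macrophage mean (r = 0.77) and the other did not (0.19), and the same split was seen for IL1R2 (0.57 and -0.050).

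**Figure D4:**
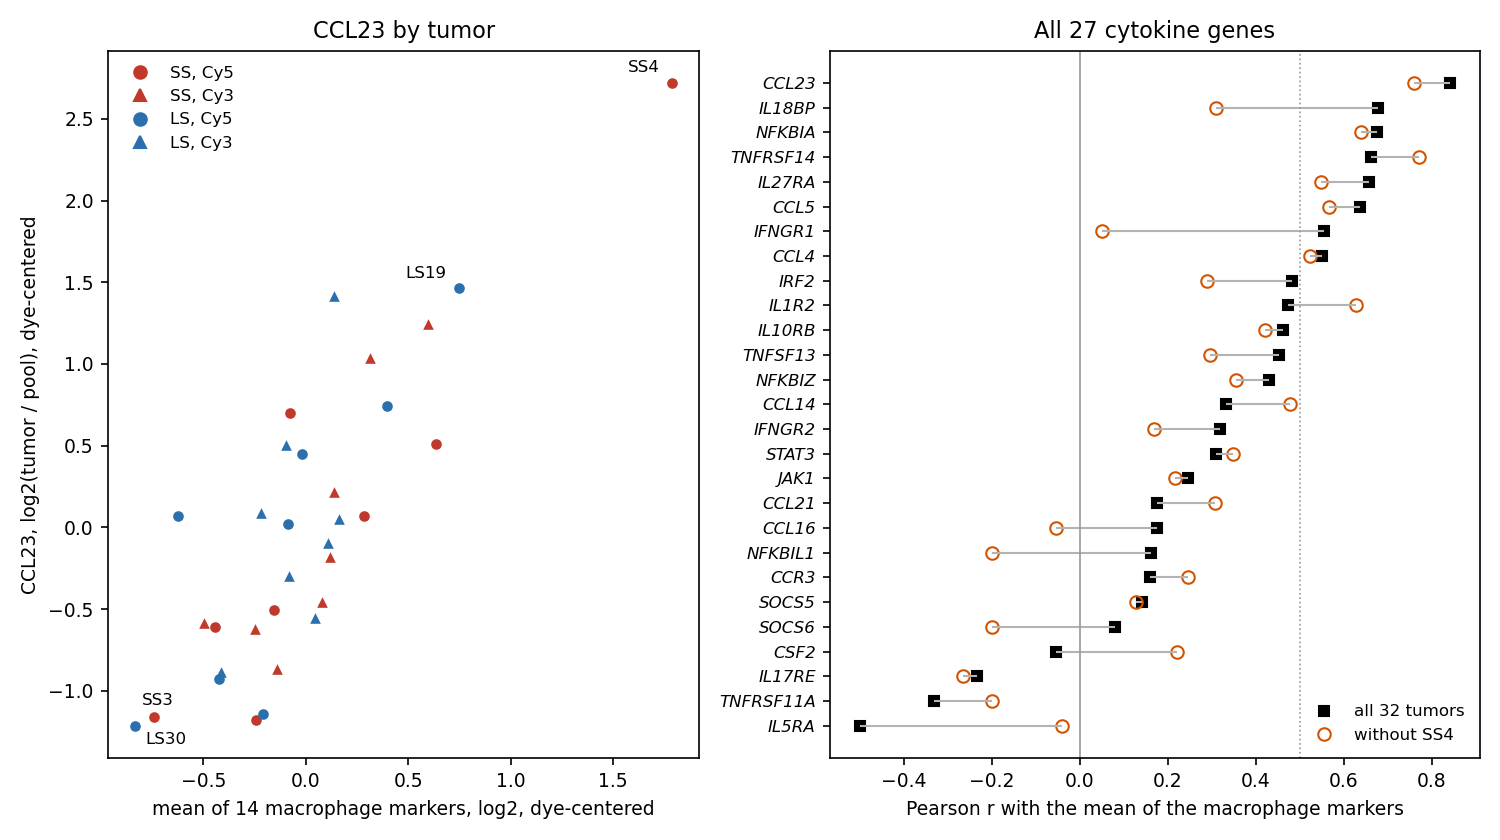
Left, CCL23 against the mean of 14 macrophage markers in 32 tumors, both as dye-centered log2 ratios, by survival group (color) and dye (symbol). Right, Pearson r of each of the 27 genes with that mean, after centering within group and orientation, in all tumors (squares) and without SS4 (open circles); the dotted line is at 0.5. CCL23 is at 0.84 and 0.76, while IFNGR1 falls from 0.55 to 0.050.

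No macrophage marker was called between the groups. All 14 had a difference above 0 (median 0.17), and none had an unadjusted p under 0.05 (limma). Their part in the SS minus LS differences of the cytokine genes was not tested. CD163 (0.29, SE 0.16), CD68 (0.45, SE 0.26) and CD14 (0.14, SE 0.12) had the smallest p. These 14 genes were themselves correlated (median r 0.67), so their signs are not independent. CCL23, the member closest to them, differed by 0.040 and TNFRSF14 by -0.27.

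Other cell types were represented by fewer genes. Of 33 T and NK cell markers, CD3D, CD3E, LCK and NKG7 were measured. Their mean lay between -0.27 and 0.37 in SS and between -0.27 and 0.25 in LS, and 3 members had an r above 0.5 with it: CCL5 (0.66), CCL23 (0.60) and IL27RA (0.57), against 1.35% of all features. Without SS4 there were 2, CCL5 (0.61) and CCL23 (0.52), against 1.25%. The 4 markers hardly followed each other (median r 0.10). Of 13 neutrophil markers none was measured, of 20 B and plasma cell markers JCHAIN and XBP1, and of 11 erythroid markers GYPC.

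CCL21 and CCL14 also varied with endothelial markers. With the mean of 4 endothelial markers (PECAM1, VWF, TEK, TIE1) r was 0.69 for CCL21 (rho = 0.63, and 0.59 without LS21 and SS11) and 0.62 for CCL14 (rho = 0.35, and 0.42). These were the 2 members above 0.5, against 1.68% of all features. With the macrophage mean they had r = 0.18 and 0.33 (rho = 0.38 and 0.41), and 0.35 and 0.45 without SS4 and LS19. For CCL14, rho and the r without single tumors were thus no higher for endothelial than for macrophage markers. The endothelial mean ran from -0.28 to 0.96 in SS and from -0.30 to 0.63 in LS, with SS11 and LS21 highest. What part vessels had in the CCL21 level of LS21 was not tested.

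Interferon-induced genes varied with many of the same members. Of 68 listed genes 12 were measured, among them ISG15, OAS2, the immunoproteasome subunits PSMB8 and PSMB9, the peptide transporters TAP1 and TAP2, and B2M. An r above 0.5 with their mean was found for 9 of the 27 genes, led by CCL5 (0.74, rho = 0.78), against 2.08% of all features, and for 4 of 27 without SS4, against 1.36%. Only CCL5, NFKBIA and TNFRSF14 stayed above 0.5 in each orientation and without the 2 farthest tumors. CCL4 was at 0.89 in Cy5 and 0.16 in Cy3 arrays, IL27RA at 0.85 and 0.13, and IL18BP at 0.73 and 0.033. Between groups 9 of the 12 had a difference above 0 and 3 below (median 0.056), with none called. The smallest p were those of PSMB8 (0.20, SE 0.15), PSME1 (-0.10, SE 0.12) and SP100 (0.091, SE 0.12).

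NFKBIZ and IL10RB followed osteoclast genes. With the mean of 10 osteoclast genes, such as CTSK, CA2 and TCIRG1, r was 0.64 for NFKBIZ and 0.61 for IL10RB, and above 0.5 in each orientation. The 10 osteoclast genes followed each other weakly (median r 0.25). IL1R2 was at 0.51 with their mean, and 1.80% of all features exceeded 0.5. With the macrophage mean NFKBIZ and IL10RB had r = 0.43 and 0.46 (rho = 0.49 and 0.53). IL10RB was also at 0.53 with the interferon-induced mean. With the mean of 5 osteoblast and bone matrix markers it was at 0.50 (0.17 in Cy5 and 0.73 in Cy3). The difference between lists was not tested. CSF1R and TYROBP are in both the osteoclast and the macrophage list. TNFRSF11A, the receptor that drives osteoclast formation, was measured by 1 probe of low spread. Of the 11 osteoclast genes measured of 26, 9 had a difference above 0 and 2 below (median 0.13), none called, with CLCN7 (0.13, SE 0.068), CA2 (0.57, SE 0.43) and ATP6V0D2 (0.65, SE 0.53) lowest in p.

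**Figure D5:**
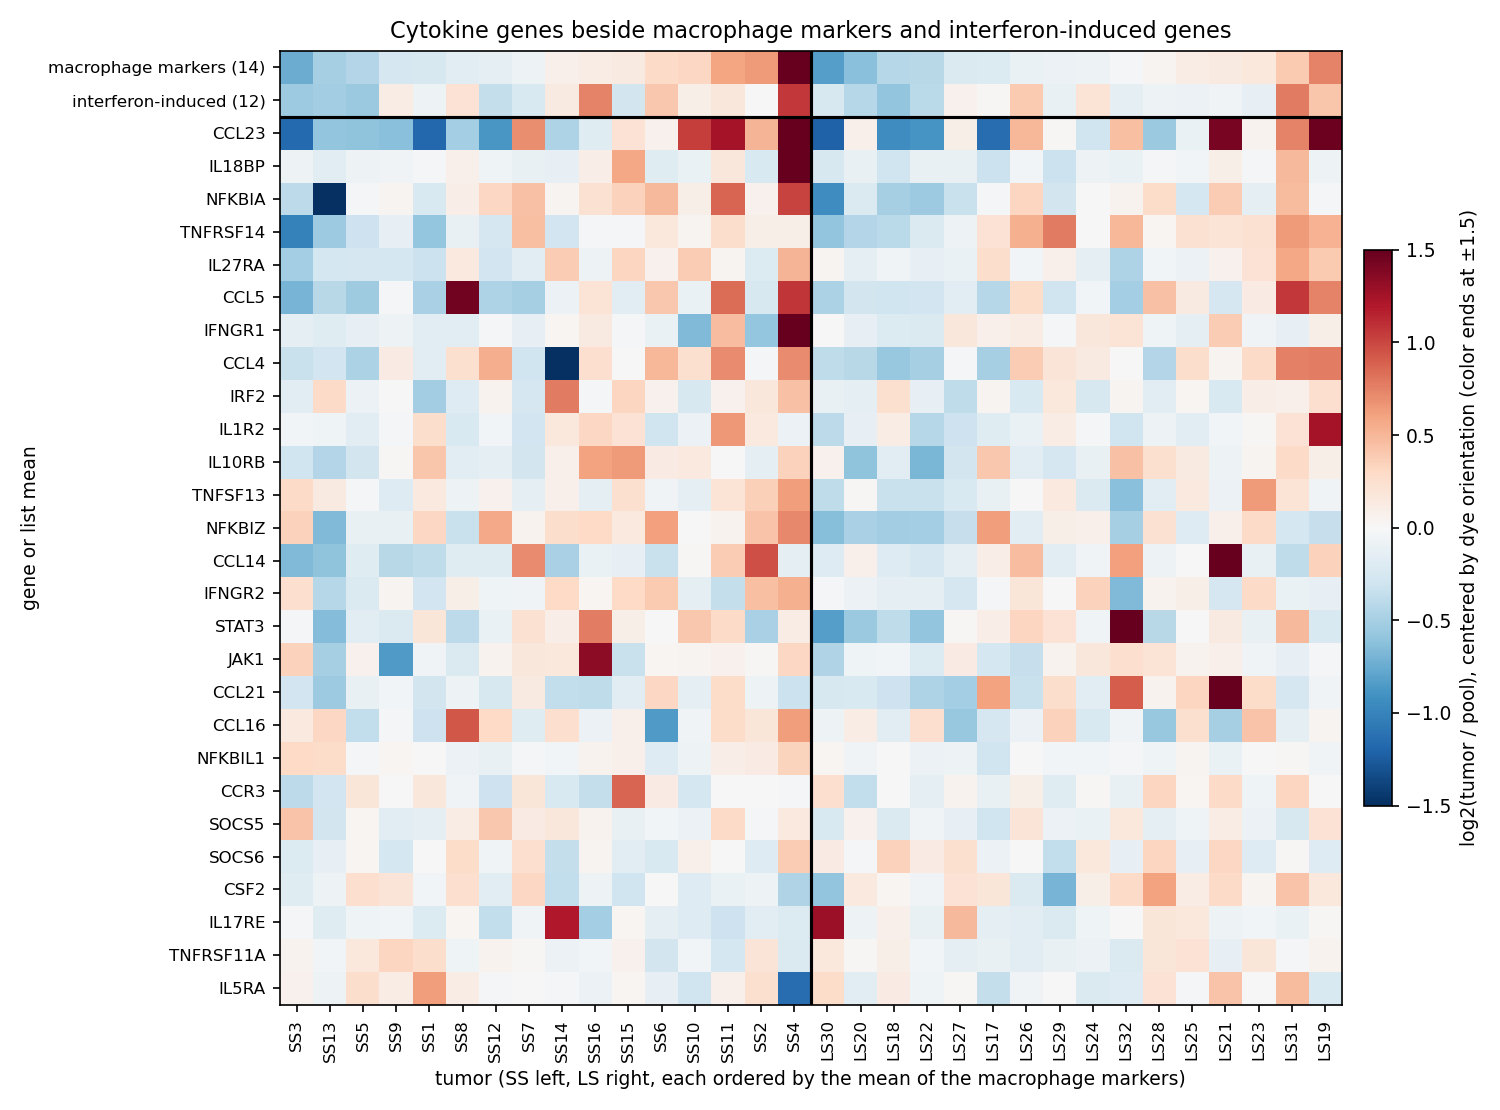
Dye-centered log2 ratios of the 27 genes (rows, ordered by r with the macrophage mean) in 32 tumors, short survivors left and long survivors right, each ordered by the mean of the 14 macrophage markers in the top row. Red is above and blue below the mean of the orientation. SS4, at the right end of the short survivors, is red for CCL23, IL18BP, IFNGR1, CCL5 and NFKBIA, and LS21 for CCL23, CCL14 and CCL21.

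Single tumors stood apart in several members at once. SS4 was the highest of 32 tumors in 8 of the 27 genes (CCL23, IL18BP, IFNGR1, NFKBIA, NFKBIZ, IFNGR2, SOCS6, NFKBIL1) and among the top 3 in 14. The median of the 27 in that tumor was 0.34, beside -0.021 over all features of the same array. The SD of all values on the SS4 array was 0.73, near the upper end of the 32 arrays (0.47 to 0.76). How often any feature was highest in SS4 was not counted. LS31 was among the top 3 in 9 genes (median 0.21). At the other end, SS13 (median -0.27), LS30 (-0.23) and LS22 (-0.20) were among the lowest 3 in 9, 9 and 8 genes. LS22 was above its orientation mean in 2 of the 27 genes. LS30 was also the tumor with the highest muscle marker mean (1.78) and the lowest macrophage mean (-0.83).

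Other signaling genes of these pathways, from lists outside the symbol rule, gave no call either. Of 56 NF-kB and Toll-like receptor genes 8 were measured, 4 higher and 4 lower in SS (median -0.00061), with 1 at an unadjusted p under 0.05. RBCK1, a subunit of the linear ubiquitin ligase that activates NF-kB, differed by -0.21 (SE 0.082, adjusted p = 0.64, limma), CD14 by 0.14 and TAB2 by 0.088. Of 42 JAK-STAT genes 6 were measured, 4 higher and 2 lower (median 0.060). CNTF, a ligand of the interleukin-6 family, differed by -0.23 and came closest to a call with the dye block (adjusted p = 0.11, limma), followed by PIAS1 (0.082) and STAM (0.21).

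Of 16 bone markers of the labelled tissue 5 were measured (ALPL, SPP1, COL1A2, SPARC, PHEX). Their mean ran from -1.25 to 1.20 in SS and from -2.63 to 1.57 in LS. Values are ratios to a pool of the same tumors, so whether a marker was present at all could not be checked. PHEX (0.31, SE 0.13) had the smallest p of these, before SPARC (-0.52) and SPP1 (0.51), and none was called. Skeletal muscle transcripts differed widely between samples. The mean of 14 muscle markers ran from -0.51 (median -0.22) to 1.35 in SS and from -0.43 (median -0.075) to 1.78 in LS, high in SS7, LS27 and LS30 and next in LS29. The difference was below 0 for 13 of the 14 genes (median -0.25), and none was called in all tumors. Within the Cy3 arrays 2 were called, MB (-0.33, adjusted p = 0.057) and TNNC2 (-0.35, adjusted p = 0.065, limma), the latter named after its value was seen. In all tumors MB (-0.19), DES (-0.61) and MYH2 (-0.18) had the smallest p. Without these 4 tumors 0 of the 27 cytokine genes and 0 features were called, and the NFKBIZ difference was 0.30. Both cartilage markers measured, COMP and COL2A1, had differences of -0.40 and -0.23, also uncalled. Both changed sign with the orientation: COMP was at 0.10 in Cy5 and -0.89 in Cy3, and COL2A1 at 0.38 and -0.84.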

How the data were processed

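Before deposit the authors flagged defective spots, corrected each array by print-tip Lowess, took logarithms and turned the ratios of dye-swapped arrays round. These deposited values were read as log2 of tumor over pool. The sources used here give neither the base nor the image software. On the 14 muscle markers, which were themselves correlated (median r 0.72), the sign of SS minus LS was the same in both orientations. Other markers changed sign, such as SPP1 (1.50 in Cy5 and -0.47 in Cy3) and COMP (0.10 and -0.89). Of all features 46.9% kept it. Per-probe means of Cy5 and Cy3 arrays correlated at -0.66. The lowest correlation of 2 arrays of one orientation was 0.024 in Cy5 and 0.0026 in Cy3. Probes were named from the platform annotation, and probes of a gene were averaged. The 19728 features were 5246 genes and 14482 probes without a symbol, with 5 missing values, none in the 27 genes. limma 3.58.1 (R 4.3.3; lmFit, eBayes, two-sided) was run on 16 SS and 16 LS tumors without covariate, as main test, and with the dye orientation as block, within orientations and with an interaction; p-values were adjusted by Benjamini-Hochberg over all features, with calls at an adjusted p under 0.10. Scripts were tested on simulated data. Named genes were the 12 with the smallest p, the 12 with the largest SD, those called in any fit and up to 3 per list. The members and lists were chosen with earlier results of these data known. Arrays carry no read depth. Precision is limited by the number of tumors, by 1 hybridization per tumor and, for 20 of the 27 genes, by 1 probe. RefSeq gene order was used for neighbors only.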

Additional observations from a re-analysis of the deposited data

How the results depend on the processing

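The count of 0 cytokine genes called between survival groups held under every alternative run, and with each tumor left out. Features called were 0 in the comparison of all tumors, 69 with the dye block, 1250 within Cy5, 2022 within Cy3 and 2 by SAM, and 0 to 1 with 1 tumor left out (1 without SS1 and 1 without LS30). The median difference of the 27 genes ran from -0.0064 to 0.087 with 1 tumor left out. In the test of survival by dye, IRF2 was called when arrays were centered on their medians (1 gene, adjusted p = 0.092) or scaled to equal spread (1 gene, 0.066), and IRF2 and IL1R2 with array weights (2 genes, 0.041 and 0.095, limma). Of all features 11.2%, 14% and 18% were called in these fits.

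No gene's difference was called. The dye block leaves every difference as it was. Taking the median of the probes instead of their mean, another alternative, can change only CCL21. The share of opposite signs therefore does not measure stability. Of 243 gene-by-alternative values, 31 had the opposite sign to the value in all tumors. In Cy5 arrays these were CCL4 (0.038), CCR3 (0.050), CSF2 (0.016), IFNGR1 (0.024), IL10RB (-0.071), IL1R2 (-0.17), IL5RA (0.015), IRF2 (-0.14), SOCS6 (0.077) and STAT3 (-0.14), and in Cy3 arrays CCL23 (-0.056), CCL5 (-0.055), IFNGR2 (-0.079), IL27RA (0.061), JAK1 (-0.0056) and TNFRSF11A (-0.012). Centering gave CCL4 0.0054. Scaling gave CCL23 -0.077, CCL5 -0.011 and TNFRSF11A -0.0015, quantile normalization CCL23 -0.017, CCL5 -0.0013, IL5RA 0.0078 and STAT3 -0.036, and array weights CCL23 -0.058, CCL5 -0.017, IL5RA 0.00058 and TNFRSF11A -0.0085. Without the 4 muscle-rich tumors, an alternative chosen after seeing the data, CCL23 was at -0.082, CCL4 at 0.0032 and STAT3 at -0.041. With 1 tumor left out, signs turned for CCL23 (-0.17 to 0.17), CCL4 (-0.056 to 0.12), CCL5 (-0.084 to 0.13), IFNGR1 (-0.13 to 0.0079), IL5RA (-0.076 to 0.042), JAK1 (-0.0011 to 0.15), STAT3 (-0.038 to 0.13) and TNFRSF11A (-0.014 to 0.036). With tumors left out, differences were computed on deposited values without a dye term, so part of the dye gap can enter them. The cause of the turned signs was not tested. Without SS4, also chosen after seeing the data, pairs with r above 0.5 went from 23 to 13 and genes above 0.5 with the interferon-induced mean from 9 to 4. No paired analysis was possible because each tumor came from a different dog and no tumor number occurs in both groups.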
